A study of Bos taurus with 27 samples.

Results

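Interferon-stimulated genes are the genes a cell switches on after it senses interferon, and 10 of them were followed in the rumen epithelium (RE) of Japanese Black beef cattle. The members were the non-control array probes named ISG15, MX1, MX2, IFI6, IFIH1, DHX58, RSAD2, IRF7, IRF1 or IRF9, and each name had 1 probe among the 14952 names on the array. The same 9 castrated and fistulated bulls were biopsied at the early, middle and late stage of fattening on a high-grain diet, at 14, 21 and 29 months of age. The number in a sample title was assumed to be the same animal at each stage. All 27 biopsies came from animals on concentrate, so no group was fed forage alone or left unfattened, and age and time on the diet cannot be told apart. The RE was taken with a punch from the ventral sac of the rumen. The extraction text of the labels names neutrophils and liver instead, while their tissue, title and description fields and the study's methods all give RE. A punch of this kind holds stratified epithelium together with some of the cells under it. The question was how these genes changed during the first period (middle against early), the second period (late against middle) and the total period (late against early), and how far the animals differed among themselves.

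Type I and type III interferons bind receptors at the cell surface and act through the kinases JAK1 and TYK2 on a complex of transcription factors that includes IRF9, which enters the nucleus and turns on the interferon-stimulated genes. Some of the products restrict viruses directly (MX1, MX2, RSAD2), some sense viral RNA in the cytoplasm (IFIH1, DHX58), and others are transcription factors that feed back on the response (IRF1, IRF7, IRF9). ISG15 is a small ubiquitin-like protein that is joined to other proteins. In epithelia that face microbes, such genes are also transcribed at a low level without infection.

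The probes are 60-base oligonucleotides, and the sequences of the genes on which the results turn are given here because the measured values belong to these letters and not to the whole gene. Coordinates are those of the array design, in UMD 3.1. The ISG15 probe (chr16:52714715-52714774, minus strand) and the RSAD2 and IRF1 probes each have at least 1 reading frame without a stop codon, and they are printed whole, all in lower case. The coordinates of the RSAD2 probe (chr11:90012605-90012649, minus strand) span 45 bases, fewer than the probe is long, and those of the IRF1 probe (chr7:23237015-23238351, plus strand) span 1337 bases, more than its length. For IRF7 (chr29:50906761-50906820, plus strand) 30 bases are printed with the polyadenylation signal AATAAA in capitals, letters that 9.51% of all 15008 probes hold. For IFIH1 (chr2:34272453-34272512, plus strand) and MX1 (chr1:143204603-143204662, plus strand) the first 30 bases are printed.
ISG15: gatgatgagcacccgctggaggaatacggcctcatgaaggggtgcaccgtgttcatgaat
RSAD2: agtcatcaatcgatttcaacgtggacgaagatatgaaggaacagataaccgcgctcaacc
IRF1: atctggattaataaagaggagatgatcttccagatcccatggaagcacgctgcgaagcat
IRF7: cccttccaatccAATAAAaagatctaaggg
IFIH1: ggtattcgagtataaataaggatctaaggt
MX1: tagtctctgctgtctcttagtggataagca
The G and C content of the probes was 55.0% for ISG15, 51.7% for IRF7, 45.0% for RSAD2, IRF1 and MX1 and 35.0% for IFIH1, beside a median of 45.0% over all probes.

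Levels are given as log2 of the processed signal over the array median, so that 0 is the median probe of that array, and the level of 1 probe is not set against that of another. The median processed signal was 35.2 to 48.6 on the early-stage arrays and 32.2 to 47.0 on the late-stage arrays, but 8.22 to 28.7 on the middle-stage arrays, on which the share of spots well above background was 48.8 to 71.6% against 68.5 to 78.2% at the other stages. The early biopsies of cattle 1 to 8 were on slide 1, that of animal 9 was on slide 2 together with the middle biopsies of cattle 1 to 7, and slide 3 carried those of cattle 8 and 9. Slides 4 and 5 carried late biopsies alone, so late stage and slide cannot be told apart. Of 17 markers of stratified epithelium, 16 were well above background on all early-stage and 16 on all late-stage arrays, and 13 were so at the middle stage. Of 21 leukocyte markers, 15, 11 and 15 were so at the early, middle and late stage. The myeloid markers CD14 and CSF1R were so at all 3 stages, and ITGAM was so on no array. Each stage had 9 arrays, and this number limits the precision.

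Few of the 10 genes moved together. During the first period limma called 3 of the 10 at an adjusted *P* below 0.05, 2 higher and 1 lower, where 66.5% of all probes were called (45.3% higher and 21.2% lower). During the second period 6 of the 10 were called, 1 higher and 5 lower, against 71.5% of all probes (26.7% higher and 44.8% lower). Over the total period 3 were called, all lower, against 20.0% of all probes (11.0% higher and 9.01% lower). The share called was below that of all probes in the first period and closer to it in the other periods. The median log2 fold change of the 10 genes was −0.02, −0.60 and −0.54 in the 3 periods, beside 0.33, −0.28 and 0.03 over all probes. ISG15, MX1, DHX58 and IRF7 were measured above background on all 27 arrays. MX2 and IRF9 were so in all animals at 1 stage or more, and IFI6, IFIH1, RSAD2 and IRF1 at none. Of the calls, only those of ISG15 and IRF7 were of probes above background on every array compared.

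**Figure D1:**
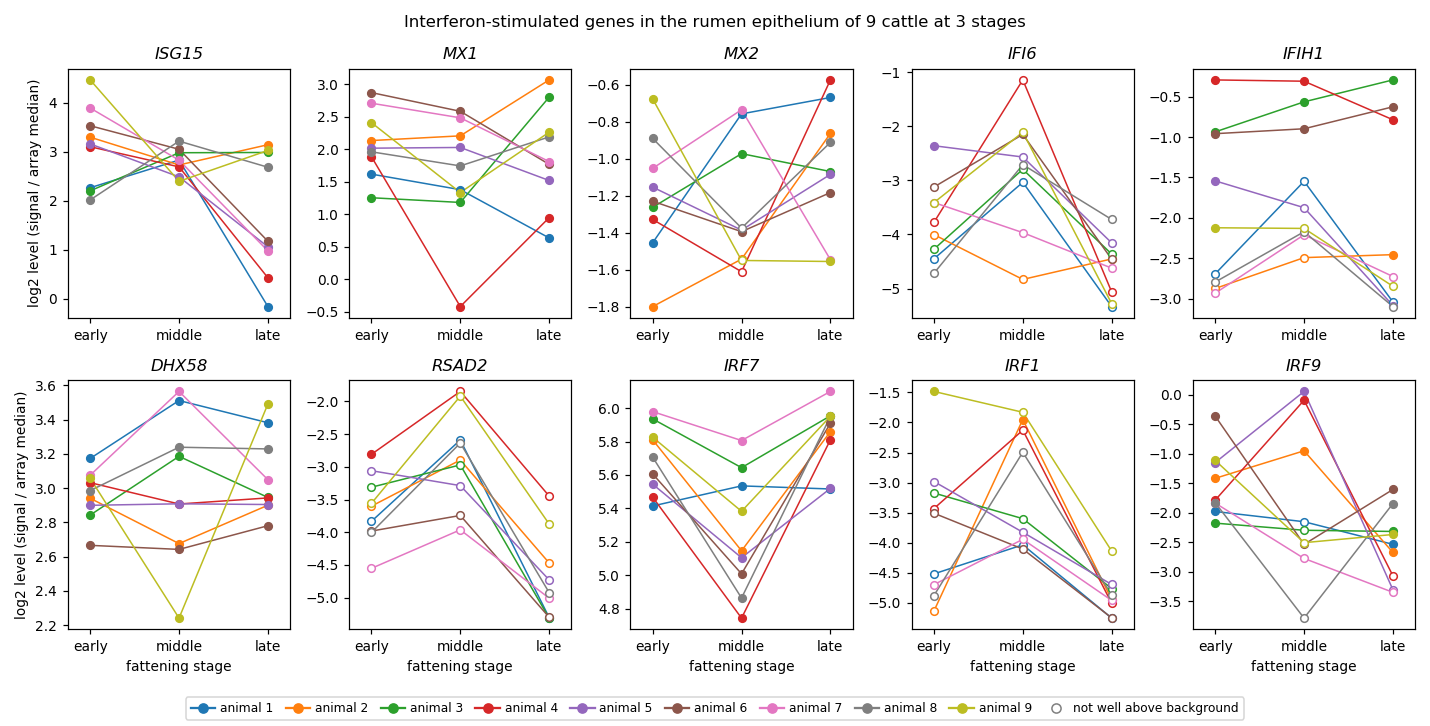
Log2 level (signal over the array median) of the 10 genes at the early, middle and late stage. Each line is 1 of 9 animals, and open circles mark arrays on which the probe was not well above background. ISG15 fans out at the late stage, from −0.16 to 3.14, IRF7 dips at the middle stage, and the lines of cattle 3, 4 and 6 run above the others for IFIH1.

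ISG15, the ubiquitin-like modifier, was lower at the late stage than at both earlier stages, and its fall was uneven between animals. Early log2 levels had a lowest, median and highest value of 2.02, 3.16 and 4.47. The corresponding values were 2.40, 2.83 and 3.22 in the middle and −0.16, 1.17 and 3.14 at the late stage. The 3 ranges overlapped, and the mean fell from 3.10 ± 0.82 and 2.80 ± 0.26 to 1.70 ± 1.26 (SD, n = 9). The second-period log2 fold change was −1.10 (SE 0.39) with a limma adjusted *P* of 0.0162, and that of the total period was −1.40 (SE 0.39) with one of 0.0151, which are 2.14-fold and 2.64-fold lower levels. ISG15 fell in 6 of 9 animals in the second period and in 7 of 9 between the first and last biopsy. The first-period change was −0.30 (SE 0.39, limma adjusted *P* = 0.499).

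Late-stage ISG15 levels lay far apart between cattle. Cattle 2, 9, 3 and 8 had levels of 3.14, 3.03, 2.99 and 2.68, and the next was animal 6 at 1.17. Cattle 5, 7, 4 and 1 followed at 1.06, 0.98, 0.43 and −0.16. Slide 4 held cattle 1 to 8 at this stage and so spanned both ends of the range. The SD of 1.26 was larger than that of 99.7% of the 9821 probes that every late-stage array measured above background. At the early stage the SD of ISG15 exceeded that of 98.2% of 9963 such probes, whereas at the middle stage it exceeded 13.4% of 6813. The order of the animals differed between stages. Animal 8 had the lowest level early and the highest in the middle, and animal 9 the highest early and the lowest in the middle. The animal effect across stages was not called (F = 1.10, limma adjusted *P* = 0.689).

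The calls of ISG15 were not stable. In the second period the change without animal 1 was −0.86 (limma adjusted *P* = 0.0631) and without animal 4 −0.95 (limma adjusted *P* = 0.0523). Over the total period it was −1.21 without animal 7 (limma adjusted *P* = 0.0539), and the methods' t-test gave an adjusted *P* of 0.0626. With the slide as a random block the changes were −0.79 (limma adjusted *P* = 0.343) and −1.38 (limma adjusted *P* = 0.449), and after normexp background correction −0.23 (limma adjusted *P* = 0.525) and −0.77 (limma adjusted *P* = 0.173). Under the random block 248 of all 15008 probes were called over the total period, against 2999 without it. Over all alternatives the adjusted *P* ran from 0.00506 to 0.525 in the second period, with 18 of 22 alternatives called, and from 0.00579 to 0.449 over the total period, with 18 of 22 called, and the direction was down in all of them.

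Leukocyte markers moved in part with ISG15. The summed linear level of 21 leukocyte markers was lowest in animal 1 (99.8) and highest in animal 2 (166) at the late stage, the same animals that had the lowest and the highest ISG15 level. Animal 9, however, was second in ISG15 and had the second lowest sum (113). The highest sum was that of animal 9 at the early stage (228) and of animal 8 at the middle stage (169), again the animals with the highest ISG15 level, while the lowest sums were those of cattle 2 (102) and 1 (111), which were not lowest in ISG15. By stage the sum had medians of 146, 148 and 131. Of the 21 markers 4 were called higher and 9 lower in the second period, beside 26.7% and 44.8% of all probes. Over the total period 1 was called higher and 5 lower, beside 11.0% and 9.01%. ISG15 fell in both comparisons. The 1 called higher was CD79B (0.52). The 5 were CD8A (−1.29), CD3E (−1.07), PTPRC (−0.74), CD74 (−0.72) and LCP1 (−0.50), and all were named after their values were seen. In the second period CD3G rose by 2.08 (limma adjusted *P* = 1.69e-05) and CD3D was called higher (limma adjusted *P* = 3.17e-05). CD4 and ITGAM were well above background on no array. The part of leukocytes in the ISG15 values was not tested, and in a bulk biopsy fewer cells of a type and less RNA per cell cannot be told apart.

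**Figure D2:**
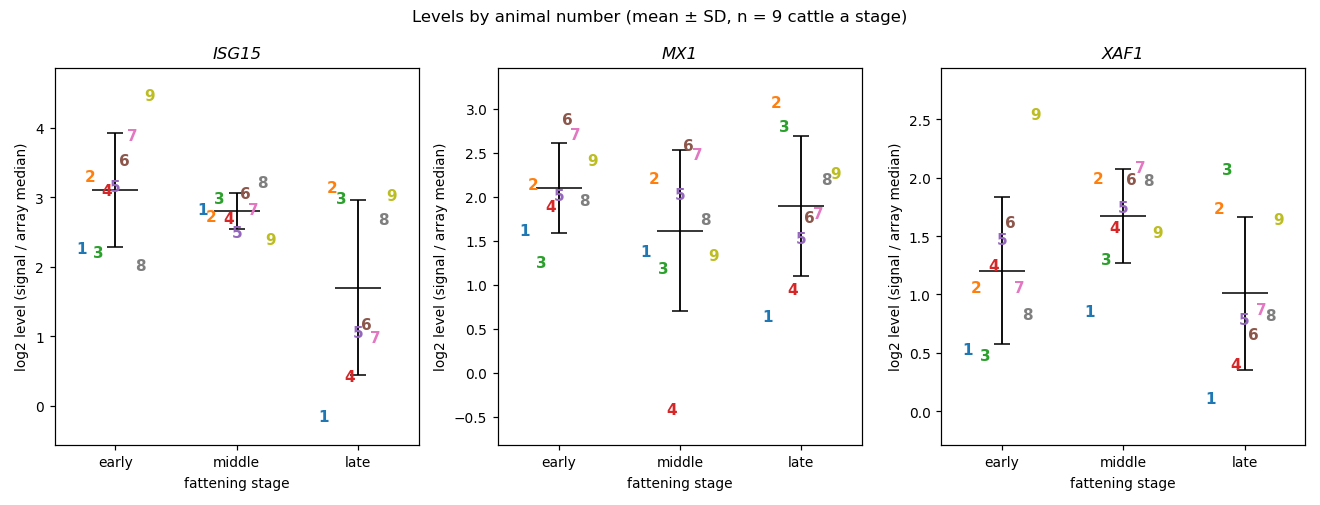
Log2 level (signal over the array median) of ISG15, MX1 and XAF1 by stage, with each animal drawn as its number, the bar as the mean and the whiskers as the SD of 9 cattle. At the late stage cattle 2, 3 and 9 are the 3 highest and cattle 4 and 1 the 2 lowest in all 3 panels.

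MX1 and MX2 are dynamin-like GTPases that block virus replication. MX1 did not pass the test in any period. Its lowest, median and highest levels were 1.26, 2.02 and 2.87 at the early stage and −0.42, 1.75 and 2.59 at the middle stage. At the late stage they were 0.64, 1.81 and 3.07. The ranges overlapped widely, and the log2 fold changes were −0.48 (SE 0.28, limma adjusted *P* = 0.134), 0.28 (SE 0.28, limma adjusted *P* = 0.383) and −0.21 (SE 0.28, limma adjusted *P* = 0.676) in the first, second and total period.

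The order of cattle for MX1 at the late stage resembled that for ISG15. Cattle 2, 3, 9 and 8 were highest at 3.07, 2.80, 2.26 and 2.19, and cattle 4 and 1 lowest at 0.95 and 0.64. Both genes had their largest values at this stage in the same 4 cattle. Across the 27 arrays, after the stage means were taken out, ISG15 and MX1 had a correlation of 0.653, the highest of the 45 pairs of members, whose median was 0.018; the arrays share their scaling, and the value is a description. MX1 also varied widely, with SDs of 0.51, 0.91 and 0.80 that exceeded those of 91.8%, 97.4% and 98.5% of the probes measured in all animals of the stage. The animal effect of MX1 across stages was not called (F = 2.63, limma adjusted *P* = 0.336).

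MX2 lay near the lower end of the measured range and was well above background on 9, 6 and 9 arrays. The lowest, median and highest levels were −1.80, −1.23 and −0.68 at the early, −1.61, −1.39 and −0.74 at the middle and −1.56, −1.07 and −0.57 at the late stage. No period was called, and the largest change was 0.21 (SE 0.18, limma adjusted *P* = 0.300) in the second. Its late-stage order was unlike that of MX1, with cattle 4 and 1 highest and cattle 7 and 9 lowest.

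IFI6, a small protein of mitochondria and the endoplasmic reticulum, and RSAD2, also called viperin, which makes a chain-terminating nucleotide, were hardly measured. IFI6 was well above background on 2 of 27 arrays, those of animal 5 at the early and animal 6 at the middle stage. RSAD2 was so on 1, that of animal 4 at the early stage. The median processed signal of RSAD2 was 3.04, 2.45 and 1.31 at the 3 stages. It was thus lower at the middle than at the early stage, while the level relative to the array median was higher, at −2.90 against −3.60. RSAD2 was called in all 3 periods and IFI6 in the first and second, but under quantile normalization neither was called in the first period. No fold is given for either gene, since both sides of each comparison lay mostly below background. The first-period call of IFI6 was kept in 10 of 22 alternatives, with an adjusted *P* from 0.00779 to 0.999. It was lost without animal 1, 3, 4, 6, 8 or 9, in the methods' t-test, with either block on slide, within slide 2 and without the 3 middle-stage arrays with the fewest probes above background. In the second period IFI6 was called in 19 of 20 alternatives and RSAD2 in 20 of 20.

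**Figure D3:**
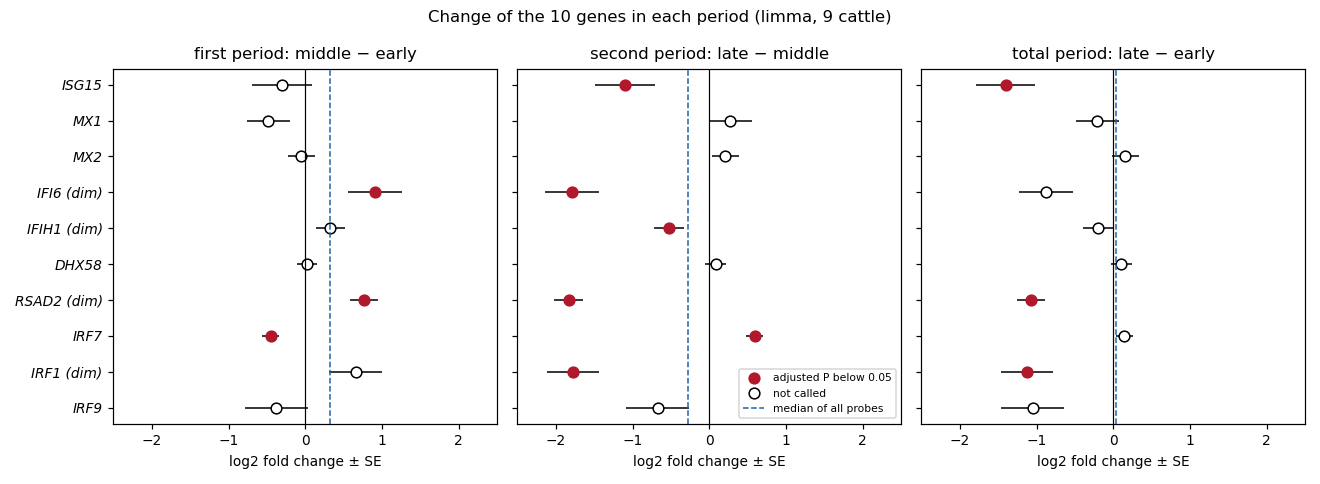
Log2 fold change ± SE of the 10 genes in the first, second and total period, from the limma fit over 9 cattle. Filled points passed an adjusted *P* below 0.05, the dashed line is the median of all probes (0.33, −0.28 and 0.03), and "dim" marks genes without a stage at which all 9 arrays measured them above background.

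IFIH1 and DHX58 code for the cytoplasmic RNA helicases MDA5 and LGP2. IFIH1 showed the clearest difference between animals. In cattle 3, 4 and 6 it was well above background at all 3 stages. Their levels were −0.94, −0.29 and −0.96 at the early stage, −0.57, −0.31 and −0.90 at the middle and −0.29, −0.79 and −0.63 at the late stage. The other 6 cattle had levels from −2.93 to −1.54 at the early, from −2.49 to −1.55 at the middle and from −3.10 to −2.46 at the late stage. At each stage the same 3 animals were the highest, and none of the others reached them. Only 3 of the 18 arrays of the other cattle, those of cattle 5 and 9 at the early and of animal 2 at the late stage, were well above background, so the distance between the animals is a lower limit for most.

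The animal effect of IFIH1 was called with F = 15.7 (limma adjusted *P* = 0.000299), and only 29 of the 15008 probes had a larger F. Animal effects were called for 2 of the 10 genes, against 1.87% of all probes. With each animal left out in turn F was 11.5 to 22.6 and the adjusted *P* at most 0.00486, and it was called in 16 of 17 alternatives. The exception was normexp background correction, with F = 3.45 (limma adjusted *P* = 0.393). The other call was that of RSAD2 (F = 6.00, limma adjusted *P* = 0.0371), a probe near background on almost all arrays, and it was lost without animal 1, 2, 4, 6 or 7.

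Of the named probes that neighbour IFIH1 on chromosome 2, only FAP was well above background on all arrays, and it did not share the order of cattle. FAP, a protease of activated fibroblasts, lies 104 kb from the IFIH1 probe and had an animal effect of its own (F = 7.31, limma adjusted *P* = 0.0176). Its highest mean levels were those of cattle 6, 5 and 2, and cattle 3 and 4 were among the 3 lowest. GCG, DPP4 and SLC4A10, the other named probes within 500 kb, had F values of 2.03, 2.30 and 1.51 and were not called (limma adjusted *P* = 0.478, 0.408 and 0.602). At the early, middle and late stage GCG was well above background on 0, 1 and 0 arrays, DPP4 on 2, 1 and 0 and SLC4A10 on 7, 3 and 7. The order of cattle for GCG and DPP4 therefore cannot be read. These neighbours were chosen after the IFIH1 values were seen. Summed fibroblast markers were highest in animal 6 at the early and middle stage and lowest in animal 1 at all 3 stages, an order that IFIH1 did not have.

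Between stages IFIH1 was called in the second period only, at a log2 change of −0.53 (SE 0.19, limma adjusted *P* = 0.0203). The level was lower in 6 of 9 animals. The call was lost without animal 1 (−0.41, limma adjusted *P* = 0.0736) or 8 (−0.48, limma adjusted *P* = 0.0552), under quantile normalization (−0.05, limma adjusted *P* = 0.861), without the animal block (limma adjusted *P* = 0.295), and also without the 3 middle-stage arrays with the fewest probes above background (−0.52, limma adjusted *P* = 0.0663), an alternative chosen after the data were seen. It was called in 13 of 20 alternatives, with an adjusted *P* from 0.00349 to 0.861.

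DHX58, the other helicase, did not pass the test in any period. Its lowest, median and highest values were 2.67, 2.99 and 3.17 at the early stage. They were 2.24, 2.91 and 3.57 at the middle and 2.78, 2.95 and 3.49 at the late stage. The means of 2.96 ± 0.15, 2.99 ± 0.43 and 3.07 ± 0.24 (SD, n = 9) differed by less than the spread between animals at each pair of stages. The log2 fold changes were 0.02, 0.08 and 0.11 (SE 0.13, limma adjusted *P* = 0.890, 0.587 and 0.649), and the sign of each turned under some of the settings tried. At the early stage its SD was smaller than that of most probes, exceeding 17.5% of them.

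**Figure D4:**
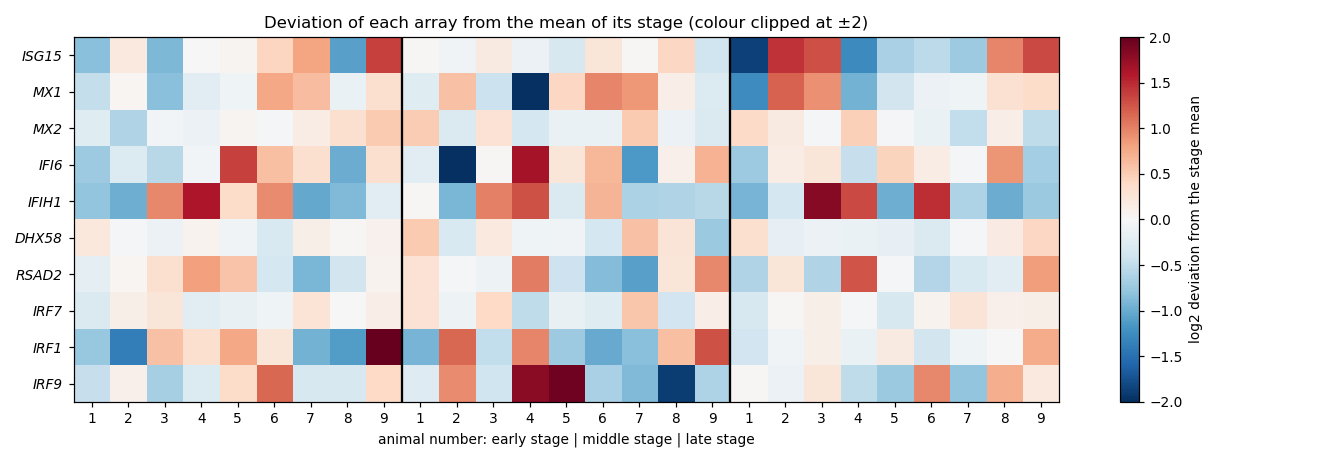
Log2 deviation of each array from the mean of its stage, for the 10 genes (rows) and the 27 arrays (columns, by animal number within stage), red above and blue below the mean. The row of IFIH1 repeats the same 3 red animals at each stage, while the rows of ISG15 and MX1 share their colours at the late stage.

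Among the transcription factors, IRF7, the factor that amplifies type I interferon production, was measured best and fell and then rose. Its lowest, median and highest levels were 5.41, 5.71 and 5.98 at the early stage. They were 4.74, 5.15 and 5.81 at the middle and 5.52, 5.91 and 6.10 at the late stage. The ranges overlapped in part, and the level was lower at the middle stage than at the early stage in 8 of 9 animals. The change was −0.45 (SE 0.11, limma adjusted *P* = 0.00178) in the first period, a 1.37-fold lower level. In the second period it was 0.59 (SE 0.11, limma adjusted *P* = 0.000118), a 1.51-fold higher level, again in 8 of 9 animals. Over the total period the change was 0.14 (SE 0.11, limma adjusted *P* = 0.418), and IRF7 was −0.02 under quantile normalization and −0.04 under cyclic loess.

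Some markers of stratified epithelium and of red blood cells moved over the same periods, and the epithelial ones went in both directions. The summed level of 17 epithelial markers had medians of 4173, 2232 and 4274 at the 3 stages, with 8 called lower and 3 higher in the first period and 5 higher and 3 lower in the second. Of all probes 21.2% were lower and 45.3% higher in the first, and 26.7% higher and 44.8% lower in the second. The median log2 change of the 17 was −0.001 and then 0.048, so the list did not move as a whole. Bright markers weigh most in the sum, and KRT6A, the brightest, had mean log2 levels of 10.89, 9.62 and 11.25. IVL, an envelope protein of keratinocytes, changed by −1.99 and then 2.57. DSC3 (0.53, then −0.45) and DSG3 (0.45, then −0.44) went the other way. All single markers here were named after their values were seen. The sum of 6 red blood cell markers had medians of 61.1, 140.0 and 56.6, and most of it was HBA. Mean log2 levels were 5.84, 7.06 and 5.92 for HBA and 0.43, 1.00 and 0.86 for AHSP, the next brightest. Only these 2 were measured well on every array. Of the 6 markers, 4 were called higher at first and 3 lower afterwards. AHSP was not among the latter (−0.14, limma adjusted *P* = 0.424), and HBB was called neither time. The part of epithelial and red blood cells in the IRF7 values was not tested.

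The rise of IRF7 in the second period was called in all 22 alternatives, at 0.41 to 1.17, with an adjusted *P* from 6.08e-05 to 0.0150. No slide held both middle-stage and late-stage arrays. A fixed slide block or a fit within a slide could therefore not be made for this period, and the 22 do not separate stage from slide. The fall in the first period was called in 22 of 24, with an adjusted *P* from 0.000442 to 0.998. Blocking on the slide as a fixed term, the first-period value was 0.0036 (SE 0.55, limma adjusted *P* = 0.998), and only 1 of all 15008 probes was called. Within slide 2, which holds 1 early-stage and 7 middle-stage arrays, it was −0.54 (limma adjusted *P* = 0.519). Animal 7 had the highest and animal 3 the second highest IRF7 level at each stage, but the animal effect was not called (F = 2.29, limma adjusted *P* = 0.411).

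IRF9, the DNA-binding part of the complex that interferon activates, was well above background on 9 early-stage, 3 middle-stage and 6 late-stage arrays. Its lowest, median and highest levels were −2.18, −1.79 and −0.36 at the early and −3.35, −2.54 and −1.61 at the late stage. All 9 animals had less of it late than early, with log2 changes from −2.16 to −0.01. The change over the total period was −1.05 (SE 0.41, limma adjusted *P* = 0.0799) and did not pass the test. The same difference passed when only the early-stage and late-stage arrays were fitted (limma adjusted *P* = 0.00393), in the methods' t-test after Benjamini-Hochberg adjustment, without animal 8 (−1.18, limma adjusted *P* = 0.0479) and without the 3 middle-stage arrays, in 4 of 21 alternatives, with an adjusted *P* from 0.00393 to 0.657. At the middle stage IRF9 ranged from −3.79 in animal 8 to 0.06 in animal 5, an SD of 1.29, which is the widest of any member at any stage.

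IRF1, a factor induced by interferon gamma, was well above background on 2 arrays, those of animal 9 at the early and animal 2 at the middle stage. Its median processed signal was 3.98, 1.69 and 1.32 at the 3 stages. It was called lower in the second and total period, with no fold given because nearly all arrays lay below background. The second-period call was made in 20 of 20 alternatives. The total-period call was made in 11 of 20, with an adjusted *P* from 0.00832 to 0.539, and it was lost without animal 3, 4, 5, 6 or 9, under quantile normalization, after normexp background correction, with a random slide block and without the animal block. Animal 9 had the highest level at each stage, at −1.48, −1.83 and −4.14, without an animal effect being called (F = 2.33, limma adjusted *P* = 0.399).

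The rest of the interferon pathway was read from lists that name what each gene does. Over all probes 45.3% were called higher and 21.2% lower in the first period, and 26.7% and 44.8% in the second. Over the total period these shares were 11.0% and 9.01%. Among the ligands 9 of 25 names were on the array, and 1, IFNB3, was measured above background in all 9 animals at any stage, while IFN-TAU, IFNAA, IFNAC and IFNT3 were so on none. Limma called 7 ligands higher in the first period and 8 lower in the second. Under quantile normalization 3 were higher and 1 lower in the first and 1 higher and 1 lower in the second period, and the list median of 1.33 in the first period was 0.33. IFNB3 rose by 1.25 (limma adjusted *P* = 2.49e-05) in the first period and fell by 1.35 (limma adjusted *P* = 6.18e-06) in the second, from a level of −2.01 to −0.76 and back to −2.11.

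Receptors and kinases that carry the interferon signal went the other way. Of 10 genes on the array 7 were lower and 2 higher in the first period, with a median of −0.64, and 7 were higher and 3 lower in the second, with a median of 0.77. Over all probes the medians were 0.33 and −0.28. The largest fall and rise were those of JAK1, the kinase shared by interferon receptors, whose mean level was 3.27, −0.04 and 3.48 at the 3 stages. JAK1 was above background on 6 of 9 middle-stage arrays. Over the total period 2 genes were lower and 0 higher by limma. The larger fall was that of TYK2, the kinase of the type I receptor, from 6.85 to 5.00, a change of −1.85 (SE 0.15, limma adjusted *P* = 5.06e-08). The other fall was that of IFNAR2, by −1.22 (limma adjusted *P* = 3.77e-07). ISG15 was also lower over the total period, while MX1, DHX58 and IRF7 were not called. A link between these genes and ISG15 was not tested.

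Among 18 genes of nucleic acid sensing 5 were higher and 4 lower in the first, 5 higher and 10 lower in the second and 1 higher and 4 lower over the total period. The balance turned under quantile normalization, with 2 higher and 4 lower, then 7 higher and 4 lower, and over the total period 0 higher and 1 lower by limma. The shares called of all probes are those given with the ligands. IRF3, the factor activated by sensing, rose by 1.15 (limma adjusted *P* = 4.46e-07) in the second period. TICAM1, the adaptor of TLR3, fell by 1.36 (limma adjusted *P* = 3.09e-07) in the first. Over the total period MYD88, the adaptor of most Toll-like receptors, was 0.49 higher (limma adjusted *P* = 0.00418) and TMEM173, now named STING1, the adaptor of DNA sensing, fell by 1.22 (limma adjusted *P* = 0.00595). TLR9, the largest rise of the first and the largest fall of the second period, was well above background on no array.

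Of 42 other interferon-stimulated genes 14 were higher and 10 lower in the first period, 11 higher and 16 lower in the second and 2 higher and 4 lower over the total period. These counts were 13 and 5, 10 and 19, and 4 and 4 without the 3 middle-stage arrays. Under quantile normalization they were 7 and 11, 11 and 14, and 1 and 2, so that the balance of the first period turned. Of all probes 45.3% were called higher and 21.2% lower in the first period, 26.7% and 44.8% in the second and 11.0% and 9.01% over the total period. USP18, which removes ISG15 from its targets, was measured above background on 9, 2 and 9 arrays at the 3 stages. It was called lower in the first (limma adjusted *P* = 1.04e-07) and higher in the second period (limma adjusted *P* = 1.75e-06), and no size is given against the dim middle stage. SAMD9, an antiviral protein, was above background on 7, 6 and 3 arrays. It was called lower in the second (limma adjusted *P* = 3.67e-08) and total period (limma adjusted *P* = 0.000280), again without a size because 6 of the 9 late-stage arrays did not measure it. IFITM5, which belongs to a family of membrane proteins but acts in bone, had the largest rise over the total period, 0.61 (limma adjusted *P* = 0.000901). IFIT1 was above background on 1 array.

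Of 18 genes known as interferon gamma targets 4 were higher and 5 lower in the first, 4 higher and 6 lower in the second and 1 higher and 3 lower over the total period. The gene that was higher was CXCL10, a chemokine for T cells, with mean levels of 1.03, 0.15 and 2.29. It rose by 2.14 (limma adjusted *P* = 4.20e-06) in the second and by 1.26 (limma adjusted *P* = 0.00509) over the total period, when ISG15 was lower. TAPBP, which loads peptides onto MHC class I, fell by 1.46 (limma adjusted *P* = 2.74e-06) in the first period. IDO1, which degrades tryptophan, had the largest fall over the total period, by 1.37 (limma adjusted *P* = 0.0450), and was above background on 8 early-stage and 5 late-stage arrays. Of 14 negative regulators 3 were higher and 4 lower, then 3 higher and 2 lower, and over the total period 1 higher and 1 lower. For both lists the shares called of all probes are those given with the ligands. The phosphatase PTPN6 rose by 2.03 (limma adjusted *P* = 2.34e-08) and PTPN11 fell by 1.70 (limma adjusted *P* = 7.46e-08) in the second period.

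The genes most like the members were found from the mean deviation of ISG15, MX1, MX2, DHX58, IRF7 and IRF9 from their stage means, by Pearson correlation over the 27 arrays. This is a description of arrays that share animals, slides and scaling. The highest values were those of GBP4 (0.730), TMEM173 (0.718), CXCL8 (0.702), CXCL3 (0.689), XAF1 (0.687), LOC518437 (0.682), LOC783604 (0.676), LOC511531 (0.667), CD40 (0.660) and LOC504548 (0.659). GBP4 is a guanylate-binding protein induced by interferon gamma, CXCL8 and CXCL3 attract neutrophils, and CD40 is a receptor of antigen-presenting cells. The median over all probes was −0.124, and 0.213% of probes were above 0.6. Of the 6 genes in the mean, ISG15 (0.837) and MX1 (0.729) were closest to it and DHX58 (0.180) and MX2 (0.197) farthest. The mean holds each of these genes and was not scaled by their spread. Genes with a large SD, such as ISG15 and MX1, therefore weigh more in it, and this order is in part built in.

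XAF1, a binding partner of an apoptosis inhibitor, was nearest to ISG15 alone among the genes of the pathway and marker lists, with a correlation of 0.785, and probes outside the lists were not ranked. Its late-stage levels were 2.07, 1.73 and 1.64 in cattle 3, 2 and 9 and 0.40 and 0.11 in cattle 4 and 1. The 3 highest animals were those of ISG15 in another order, and the 2 lowest were the same in the same order. Animal 8 ranked 4 in ISG15 and 5 in XAF1, at 0.81. Among 33 other interferon-stimulated genes that all 9 arrays of some stage measured above background, 7 had a correlation with ISG15 over 0.5, and 5 of 14 interferon gamma targets had one. So did 5 of 16 leukocyte markers, LCP1, PTPRC, CD3E, NKG7 and CD163, of which LCP1 was highest at 0.598. Of 16 epithelial markers 0 had one, and of all 10165 such probes 1.17% had one. None of the 9 receptors and kinases did, and USP18, with 0.382, was the highest of the 12 negative regulators. These 0.5 counts were made after the ISG15 values were seen.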

How the data were processed

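RNA of 27 RE biopsies was hybridised to a custom one-colour Agilent bovine array. The authors deposited Feature Extraction output (version 11.0.1.1 in the file headers, 9.5 in the submitters' processing notes) with processed signal intensity, mean and background intensity and calls of 0 or 1 per spot, and a series matrix whose deposited log2 values equal log2 signal minus the 75th percentile to within a small offset. Log2 processed signal minus the array median was used, outlier spots were left missing, and spots of a probe were averaged (15008 probes). The stages were fitted in R 4.3.3 with limma 3.58.1 and animal as a block, with Benjamini-Hochberg adjustment over all probes. The sample titles give a bare number at each stage and do not say that it is an animal. The study's methods used paired t-tests, and arrays with the same number were assumed to be of the same animal. Animal effects were tested by the moderated F. The members and lists were chosen with earlier results of these data known. The text names all members, the largest called rise and fall of each pathway list and period, the 10 genes most like the members, and markers needed for the sums; others are said to be chosen later. A gene with several probes was read from its brightest. RefSeq accessions matched 8 of the 10 members to a current symbol. IFI6 and IFIH1 were not matched, and their identity rests on the name given on the array. Fits were tested on simulated data. Alternatives covered scaling, background, filters, slide, the paired t-test of the methods, and each animal left out. Promoters were not analysed here.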

Additional observations from a re-analysis of the deposited data

Results flagged for a closer look

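In the 30 sets of 9 values (10 genes at 3 stages), 2 held a value that lay far from the rest, and chance flags about 1 in 20 such sets. The MX1 level of animal 4 at the middle stage was −0.42, and the next lowest was 1.18. That array had the lowest median processed signal of all (8.22). Without animal 4 the first-period change of MX1 was −0.25 (limma adjusted *P* = 0.416) in place of −0.48. The IRF1 level of animal 9 at the late stage was −4.14, the next highest being −4.69, and the probe was not well above background on either array.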

How the results depend on the processing

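Limits were set by dim probes, slides and the middle-stage arrays. Among 830 alternative values of single genes 725 kept their direction and side of the threshold, 51 lost a call, 14 gained one and 40 turned sign. Quantile normalization left 1 first-period call, and animal effects in 1 gene. Cyclic loess, on the 4 genes above background on all arrays, gave 1, 2 and 1 calls in the first, second and total period and 0 animal effects (1 at an unadjusted *P* below 0.05 by limma). Restricting the test to probes that every array of some stage measured above background (6 of the 10) gave 1, 2 and 1 calls and 0 animal effects (2 unadjusted by limma). IFI6, IFIH1, RSAD2 and IRF1 were in neither set. Their stage calls and the animal effects of IFIH1 and RSAD2 were thus not tested under these settings, rather than lost. Normexp gave 6 first-period calls, 0 total-period calls (1 unadjusted by limma) and 0 animal effects (1 unadjusted). The slide as a fixed block left 0 first-period calls (1 unadjusted by limma), but it called only 1 of all 15008 probes. With the slide as a random block 0 total-period calls were left (2 unadjusted by limma). That block called 248 of all probes over the total period, against 2999 without it. Slide 2 alone holds 1 early-stage array, and no count is given for it. Slide 2 alone and the fixed block were fitted for the first period only, since no slide held late-stage arrays together with those of another stage. Fitting 2 stages gave 5 total-period calls. Leaving out the middle-stage arrays of cattle 4, 8 and 9, a setting chosen after seeing the data, gave 5 total-period calls and 1 animal effect. With each animal left out, calls numbered 2 to 4, 4 to 6 and 2 to 5 in the first, second and total period (5 without animal 8) and animal effects 1 to 2.

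Arrays were paired by the number in their title, taken as the animal. Without the replicate block 3, 5 and 2 members were called in the first, second and total period. The calls lost were those of IFIH1 in the second (limma adjusted *P* = 0.295) and IRF1 in the total period (limma adjusted *P* = 0.0523), and no other call changed.

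Signs turned mostly for small changes that were not called, and the cause was not tested. In the first period MX2 was 0.0083 under 75th percentile scaling, 0.011 with the series matrix, 0.13 after normexp, 0.14 without the 3 arrays and −0.15 to 0.050 with animals left out. DHX58 was −0.39 after normexp, −0.078 with the slide as a random and −0.96 as a fixed block, −0.00059 within slide 2 and −0.036 to 0.13 with animals left out. Under the fixed block IFI6 was −0.0059, IFIH1 −0.30, IRF7 0.0036, IRF1 −2.18 and IRF9 0.56. IRF1 was −1.89 within slide 2. Quantile normalization gave IFIH1 −0.035 and IRF1 −0.025, and normexp gave IRF9 0.14. In the second period DHX58 was −0.095 under percentile scaling and with the series matrix, −0.098 under quantile, −0.16 under cyclic loess, −0.065 without the 3 arrays and −0.063 to 0.16 with animals left out. MX2 was −0.11 after normexp, MX1 −0.063 without the 3 arrays, and IRF9 0.0092 under quantile. Over the total period DHX58 was −0.011 under percentile scaling, −0.013 under quantile, −0.032 under cyclic loess and −0.0079 with the series matrix. IRF7 was −0.020 under quantile and −0.043 under cyclic loess, MX1 0.022 after normexp, and MX2 −0.020 with the slide as a random block.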
